A study of Mus musculus with 6 samples.

Results

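Genes of the phagocyte NADPH oxidase and of antioxidant enzymes were read in monocytes sorted from tumor and from spleen. The set holds 9 of the 22180 genes with a named row: the oxidase genes Cybb, Cyba, Ncf4 and Rac2, the superoxide dismutases Sod1 and Sod2, the glutathione peroxidase Gpx1, the catalase Cat and the quinone reductase Nqo1. A gene was taken when a row of the deposited table carries exactly 1 gene symbol and that symbol is the gene's; each of the 9 has 1 such row. All mice had received Th9 cells, a kind of helper T cell, and tissue was taken on day 10 after the transfer. CD11b+CD11c–Ly6Chi cells, labelled inflammatory monocytes, were flow-sorted from spleen (3 samples) or from tumor (3 samples), and total RNA was hybridised to Mouse Gene 2.0 ST arrays. No array of mice without Th9 cells is among the 6. The sources used here do not give the tumor model, nor the sex, age or strain of the mice (the strain label reads Th9). They also leave unsaid whether samples of 1 tissue are different animals, and a p-value then reflects the spread among the samples, possibly a technical one.

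The phagocyte oxidase is a membrane enzyme that moves electrons from NADPH onto oxygen and makes superoxide, which phagocytes use against microbes. Its core is a pair of membrane proteins encoded by Cybb and Cyba. Cytosolic subunits, among them the product of Ncf4, and the small GTPase Rac2 join this core when the cell is stimulated. Superoxide dismutases turn superoxide into hydrogen peroxide, and catalase and glutathione peroxidases remove the peroxide.

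A level is the mean ± SD of log2(intensity + 1) over the 3 arrays of a group, and a difference is tumor minus spleen on that scale ± SE; folds on this scale understate changes of dim genes. A gene is called when its limma adjusted p (Benjamini-Hochberg over the 18458 genes tested) is under 0.05. All 9 genes passed the filter on dim genes. Of the 9, 1 was called higher in tumor (Sod2) and 3 were called lower (Rac2, Gpx1 and Cat), where 5.73% of all genes tested were called higher and 4.85% lower. The groups did not overlap for 6 of the 9, against 25.4% of all genes: 2 lay higher in tumor (9.81% of all genes) and 4 lower (15.5%). The median difference was -0.26 over the 9 genes and -0.05 over all genes. The genes were chosen with results of these data known, so these counts describe the set and support nothing on their own. In sorted bulk samples, fewer cells of a type cannot be told apart from less RNA per cell.

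**Figure D1:**
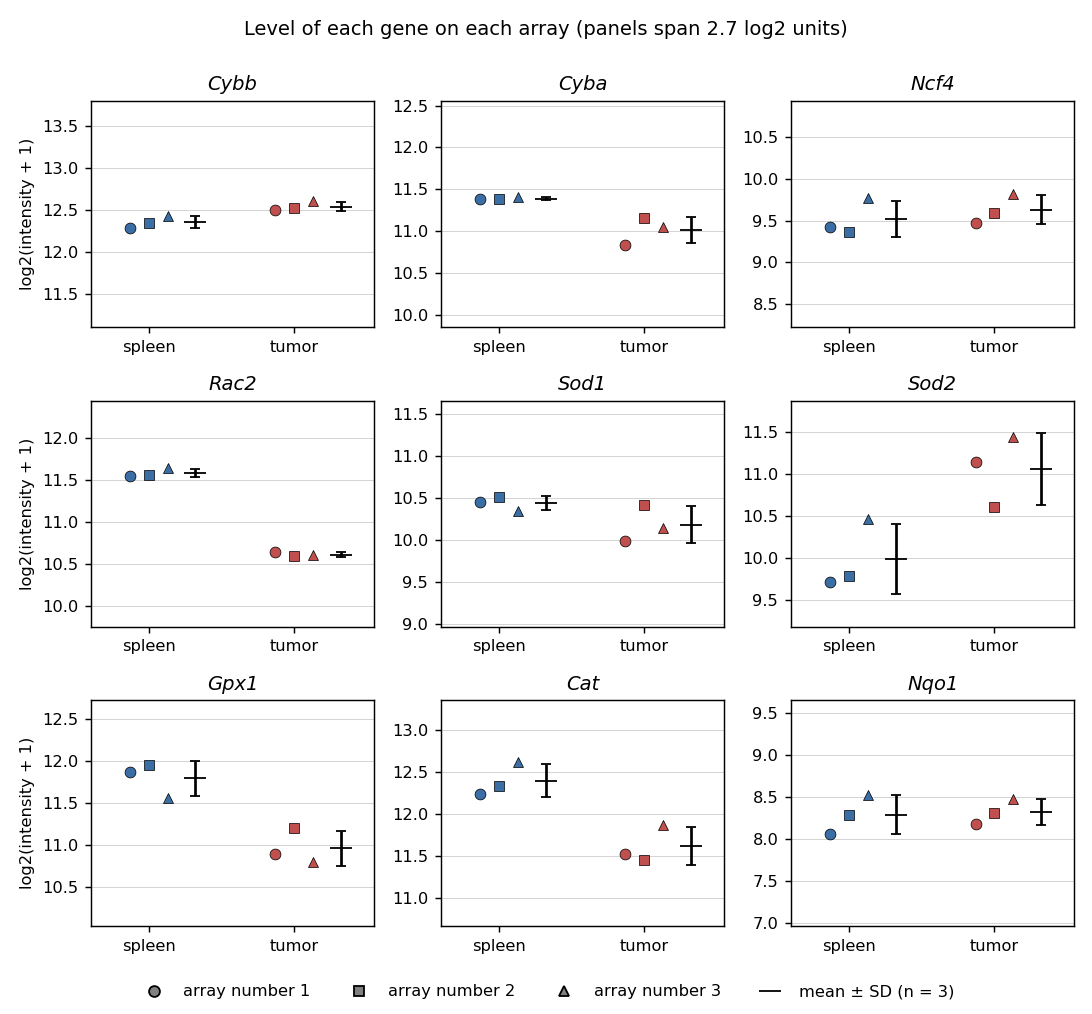
Level of each of the 9 genes as log2(intensity + 1) on each array, spleen in blue and tumor in red, with the array number as the symbol and mean ± SD (n = 3) beside the points; every panel spans the same number of log2 units. Rac2 lies near 11.59 on the spleen arrays and near 10.61 on the tumor arrays, while the Sod2 points of each group spread widely and still do not overlap between groups.

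Among the oxidase genes Rac2 fell, Cybb and Ncf4 were not called, and Cyba was lower with a call that depended on the model. Rac2, the hematopoietic Rac GTPase that switches the oxidase on, read 2998, 3027 and 3194 intensity units on spleen arrays 1 to 3 and 1600, 1543 and 1555 on tumor arrays 1 to 3. Every tumor array was below every spleen array, and the spread within each group was small. Rac2 fell from 11.59 ± 0.05 to 10.61 ± 0.03, a difference of -0.97 ± 0.13 (95% interval -1.27 to -0.67, 1.96-fold lower, limma adjusted p = 0.00234). The call survived the removal of any 1 array (adjusted p up to 0.0186), which among the 4 called genes held for Rac2 alone.

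Cybb encodes gp91phox, the subunit that carries the electrons across the membrane. It read 5004, 5215 and 5536 on spleen arrays 1 to 3 and 5805, 5879 and 6236 on tumor arrays 1 to 3. The tumor values were all above the spleen values, by a small step. The difference of 0.19 ± 0.14 was not called (95% interval -0.12 to 0.50, adjusted p = 0.555), and its number-matched values were 0.21, 0.17 and 0.17. The interval leaves room for a rise of up to 0.50 and excludes a fall as large as that of Rac2. The 250 bases before the RefSeq start of Cybb (GRCm38.p6, chrX:9469325-9469574, minus strand) are shown because interferon-regulated factors are known to act at this gene. Capitals mark matches to the interferon-stimulated response element core (GAAA, 2 free bases, GAAA), searched on both strands.
Cybb: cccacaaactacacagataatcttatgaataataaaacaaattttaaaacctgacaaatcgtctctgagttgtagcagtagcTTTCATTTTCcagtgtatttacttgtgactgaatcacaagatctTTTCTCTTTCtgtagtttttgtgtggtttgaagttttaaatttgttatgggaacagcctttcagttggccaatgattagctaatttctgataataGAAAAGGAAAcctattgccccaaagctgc
This stretch holds 3 matches, none of which overlap, and 2.98% of the 32851 promoter stretches of this length hold at least 1. A match describes the letters and is not shown to be a bound site.

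Cyba encodes p22phox, the partner that stabilises gp91phox in the membrane. It read 2660, 2661 and 2719 on the spleen arrays and 1829, 2275 and 2113 on the tumor arrays. The spleen values lay close together and above all the tumor values. The difference was -0.38 ± 0.15 (11.39 ± 0.02 against 11.01 ± 0.16), with an adjusted p = 0.169 in the limma fit without a block and an adjusted p = 0.0276 with the replicate number as a block. The labels do not say what a number stands for, and across all genes spleen 1 deviated more like tumor 2 (r = 0.46) than like tumor 1 (r = 0.36). With the block 11.7% of all genes were called higher and 17.3% lower, so a call there is more common too.

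Ncf4 encodes p40phox, a cytosolic subunit that binds a membrane lipid of phagosomes. Its intensities spanned 660.3 to 870.5 on the spleen arrays and 709.9 to 902 on the tumor arrays, so the groups overlapped. The difference was 0.11 ± 0.17 (95% interval -0.28 to 0.50, adjusted p = 0.861).

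The oxidase genes moved unequally within the same arrays. The log2 ratio of Cybb to Rac2 was 0.74, 0.78 and 0.79 on the spleen arrays and 1.86, 1.93 and 2.00 on the tumor arrays. This shift of 1.16 was far larger than the spread within either group. The log2 ratio of Cybb to Cyba went from 0.97 ± 0.06 to 1.53 ± 0.15, with no overlap. The groups were separated in these and in the other 3 of 5 ratios computed, each with an exact two-sided permutation p = 0.1 (0.1 after Benjamini-Hochberg adjustment), the smallest that 3 against 3 arrays can give. The pairs were chosen after their values were seen, and a ratio restates the differences of both its genes. These separations and p-values thus describe the arrays and support nothing on their own.

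Among the antioxidant enzymes Sod2 rose, Gpx1 and Cat fell, and Sod1 and Nqo1 were not called. Sod2, the manganese superoxide dismutase of mitochondria, read 842, 881 and 1417 on spleen arrays 1 to 3 and 2258, 1557 and 2792 on tumor arrays 1 to 3. The highest spleen array, number 3, came close to the lowest tumor array, number 2, without overlap. Sod2 rose from 9.99 ± 0.42 to 11.06 ± 0.43, a difference of 1.07 ± 0.27 (95% interval 0.45 to 1.69, 2.10-fold, limma adjusted p = 0.0403). All 3 number-matched differences were upward, at 1.42, 0.82 and 0.98. The call was lost without spleen 1 (adjusted p = 0.136), spleen 2 (0.144), tumor 1 (0.152) or tumor 3 (0.0892), and on the arrays numbered 1 and 2 alone (0.051), where 7.51% of all genes were called higher and 8.39% lower, and 0 and 3 of the 9. With the replicate block the limma adjusted p was 7.8e-04.

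Sod1, the copper and zinc superoxide dismutase of the cytosol, read 1404, 1464 and 1303 on the spleen arrays and 1011, 1369 and 1133 on the tumor arrays, with tumor 2 inside the spleen range. The Sod1 difference was -0.26 ± 0.16 (95% interval -0.63 to 0.11, adjusted p = 0.46). The log2 ratio of Sod2 to Sod1 was -0.74, -0.73 and 0.12 on the spleen arrays and 1.16, 0.19 and 1.30 on the tumor arrays. The groups of this ratio did not overlap, but spleen 3 and tumor 2 lay only a small step apart.

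Both peroxide-removing enzymes in the set fell. Gpx1, a selenium-containing glutathione peroxidase of cytosol and mitochondria, read 3754, 3963 and 3017 on the spleen arrays and 1895, 2347 and 1777 on the tumor arrays. Every tumor array lay below every spleen array. Gpx1 fell by 0.83 ± 0.18 on the log2 scale (11.80 ± 0.21 to 10.96 ± 0.21, 1.78-fold lower, limma adjusted p = 0.0192). The Gpx1 call was lost without spleen 1 (adjusted p = 0.0809), spleen 2 (0.0966) or tumor 1 (0.0938).

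Cat encodes catalase, the peroxisomal enzyme that splits hydrogen peroxide. It read 4838, 5188 and 6295 on the spleen arrays and 2947, 2807 and 3746 on the tumor arrays. The groups were well apart, and number 3 was the highest array in each. Cat fell by 0.78 ± 0.18 on the log2 scale (12.40 ± 0.20 to 11.62 ± 0.22, 1.72-fold lower, limma adjusted p = 0.0252), with number-matched differences of -0.71, -0.89 and -0.75. Its call was lost without spleen 1, 2 or 3 or tumor 1 or 2 (adjusted p = 0.054 to 0.118), though the difference stayed between -0.91 and -0.67 in all 6 such fits. The log2 ratio of Sod2 to Cat, genes of a mitochondrial and a peroxisomal enzyme, shifted from -2.41 ± 0.22 to -0.55 ± 0.26.

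Nqo1, a quinone reductase and a standard target of the factor NRF2, differed least. Its intensities ran from 266 to 367 on the spleen arrays and from 289 to 357 on the tumor arrays, so that the tumor range lay inside the spleen range. The difference was 0.03 ± 0.17 (95% interval -0.36 to 0.42, adjusted p = 0.972), and its sign turned under quantile normalization.

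**Figure D2:**
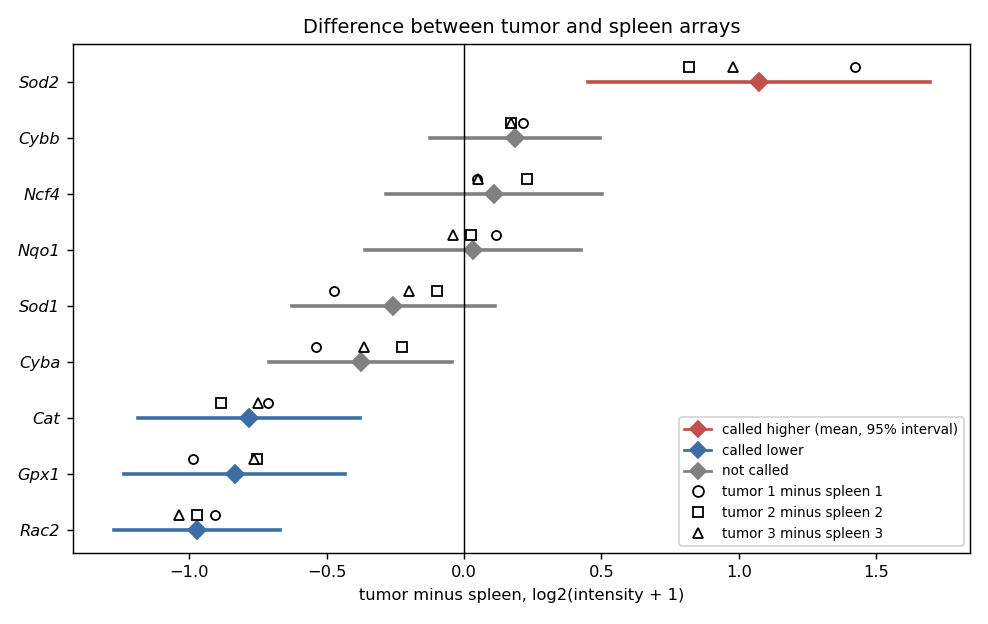
Difference of each gene, tumor minus spleen in log2(intensity + 1), as the mean with its 95% interval from limma (diamond and line, colored by call) and as the 3 number-matched differences (open symbols above each line). Sod2 stands alone to the right at 1.07, and Rac2, Gpx1 and Cat lie between -0.97 and -0.78. The open symbols of 8 of the 9 genes fall on 1 side of 0, all but Nqo1. The share of all genes with such signs was not computed, and equal numbers are not shown to be pairs.

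The stretches before the starts of Sod2, Gpx1 and Cat are shown to set the enzyme that rose beside those that fell. Each is 250 bases from the RefSeq promoter table (GRCm38.p6): Sod2 at chr17:13007589-13007838 on the plus strand, Gpx1 at chr9:108338830-108339079 on the plus strand and Cat at chr2:103485154-103485403 on the minus strand. Capitals mark matches, on both strands, to the GC box GGGCGG, the PU.1 core GAGGAA, the antioxidant response element core TGACNNNGC, the interferon-stimulated response element core and the NF-kB consensus.
Sod2: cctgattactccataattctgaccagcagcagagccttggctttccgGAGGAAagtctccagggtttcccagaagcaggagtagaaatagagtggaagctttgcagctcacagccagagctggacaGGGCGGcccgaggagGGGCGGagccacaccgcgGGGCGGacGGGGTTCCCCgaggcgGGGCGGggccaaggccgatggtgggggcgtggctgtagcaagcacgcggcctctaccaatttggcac
Gpx1: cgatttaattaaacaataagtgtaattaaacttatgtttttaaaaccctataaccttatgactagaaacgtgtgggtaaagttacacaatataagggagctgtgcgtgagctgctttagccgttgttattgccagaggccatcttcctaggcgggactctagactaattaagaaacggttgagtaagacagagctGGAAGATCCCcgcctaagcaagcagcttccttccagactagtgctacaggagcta
Cat: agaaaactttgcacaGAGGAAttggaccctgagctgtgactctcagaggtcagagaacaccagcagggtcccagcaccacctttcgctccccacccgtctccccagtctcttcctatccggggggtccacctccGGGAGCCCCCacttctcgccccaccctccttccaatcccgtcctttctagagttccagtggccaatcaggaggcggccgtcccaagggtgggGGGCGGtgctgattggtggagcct
Sod2 held 4 GC boxes, 1 PU.1 core and 1 NF-kB match (GGGGTTCCCC), which lies between GC boxes and overlaps none. Gpx1 held 1 NF-kB match, and Cat held 1 GC box, 1 PU.1 core and 1 NF-kB match. Of all promoter stretches 32.7% hold a GC box, 23.3% a PU.1 core, 10.2% an antioxidant response element core and 7.25% an NF-kB match. The gene that rose and the 2 that fell all hold an NF-kB match in this window, and none of the 3 holds the antioxidant response element core. Of the 9 genes 7 have an entry in the table, and Sod1 alone among those 7 holds that core, in 1 place. Nqo1, Sod1, Cyba and Cybb hold no NF-kB match in this window. A match describes the letters and is not shown to be a bound site, and its part in any difference was not tested.

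In both tissues the arrays numbered 3 stood at the extreme of their group for several of these genes. In both groups, array 3 was the highest of its 3 arrays for 5 of the 9 genes (Nqo1, Cat, Sod2, Ncf4 and Cybb) and the lowest for 1 (Gpx1). Array 3 was also the brightest of each group, with a median log2(intensity + 1) of 4.73 in spleen and 4.76 in tumor against 4.50 to 4.51 on the other 4 arrays. The share of all genes with such a pattern was not computed, and the part of array brightness in the gene values was not tested.

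By the smallest root mean square distance between centred profiles over the 6 arrays, the genes nearest to Rac2 were Lfng and Myo7a (0.04 and 0.05 log2 units). Those nearest to Cat were Sort1 and Cbr1 (0.03 each), and those nearest to Sod2 were Sbds and St8sia4 (0.05 each). Gpx1 had more distant neighbours, Snord16a and Mrps16 (0.08 and 0.10).

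The other genes of these pathways came from 11 lists with 110 tested genes, of which 7 were called higher and 10 lower, with a median difference of -0.14. Over all genes tested 5.73% were called higher and 4.85% lower, or 11.7% and 17.3% with the block, so a list with 1 call in 19 genes, such as the selenoproteins, lies near that share. The lists were chosen with results known, and their counts are descriptions. The share of all genes at an unadjusted p under 0.05 was not computed, so counts at that level have no background. Of 7 further oxidase subunits and activators, 2 fell and 0 rose by limma (0 rises also at an unadjusted p under 0.05). Prkcb, a protein kinase C that phosphorylates the cytosolic subunits, fell by 1.34 ± 0.15 (adjusted p = 6.3e-04). Prkcd, another protein kinase C on this list, was brighter and was not called, at 0.22 ± 0.16 (adjusted p = 0.549). Hvcn1, the proton channel that balances the charge moved by the oxidase, fell by 0.65 ± 0.15 (adjusted p = 0.0295). Ncf1, the p47phox organiser, was not called at 11.19 ± 0.36 in spleen and 11.11 ± 0.34 in tumor, and Rac1, the widely expressed relative of Rac2, was not called at -0.04 ± 0.14 (adjusted p = 0.959). Of the 7 NOX family members of other tissues 0 were called by limma and 0 had an unadjusted p under 0.05. The 2 of smallest p were Noxa1 (-0.12 ± 0.17) and Duox1 (-0.13 ± 0.31). All 7 were dim, with group means from 3.92 (Nox3 in tumor) to 4.88 (Nox4 in spleen) beside array medians of 4.50 to 4.76. Near that level a lack of calls says little about change. Among 6 factors known to act on oxidase genes, Irf1 rose by 1.80 ± 0.15 (adjusted p = 1.4e-04) and Cebpa fell by 2.14 ± 0.15 (adjusted p = 4.9e-05), while Spi1, which encodes PU.1, was not called at -0.21 ± 0.16. Irf8, which drives monocyte and dendritic cell development, stood at 0.45 ± 0.20 and was not called without the block (adjusted p = 0.234; 0.00837 with it, which makes 2 of the 6 higher and 1 lower).

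The list named NADPH supply had 3 of 10 tested genes lower and 0 higher by limma, with a median of -0.45. It includes mitochondrial enzymes, and its genes are not shown to supply the oxidase. Over all genes tested 4.85% were called lower. At an unadjusted p under 0.05, 6 of the 10 were lower and 0 higher. That count has no background over all genes, nor have such counts for the lists below. G6pdx and Tkt, also on this list, have no row with 1 symbol and were not tested. Idh1, the cytosolic isocitrate dehydrogenase that makes NADPH, fell from 10.79 ± 0.21 to 9.44 ± 0.20, a difference of -1.35 ± 0.17 (adjusted p = 0.00183). Its mitochondrial relative Idh2 (-0.61 ± 0.16, adjusted p = 0.0466) and the malic enzyme gene Me2 (-0.73 ± 0.17, adjusted p = 0.0279) fell too. With the replicate block 6 of the 10 were lower. Pgd, of the pentose phosphate pathway, stood at -0.38 ± 0.16 and was not called without the block (adjusted p = 0.207; 0.0189 with it).

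Other enzymes that remove superoxide or peroxide were read from a list. Of 9 further superoxide dismutase and peroxidase genes tested 0 were called by limma and 0 had an unadjusted p under 0.05, with a median of -0.01; with the block 1 was higher and 2 were lower. The 2 of smallest p were Prdx3, a mitochondrial peroxiredoxin (-0.52 ± 0.24, adjusted p = 0.27, or 0.00681 with the block), and Gpx3 (-0.44 ± 0.25, adjusted p = 0.395, or 0.0226). Gpx4, the lipid peroxide reductase, stood at -0.26 ± 0.15 (adjusted p = 0.425).

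Of 17 genes of the glutathione and thioredoxin systems 2 rose and 1 fell, with a median of -0.26. The counts were 2 and 6 with the block, and 2 and 5 at an unadjusted p under 0.05. The glutaredoxin gene Glrx rose by 0.86 ± 0.19 (adjusted p = 0.0224) and Slc7a11, the cystine importer, by 0.76 ± 0.18 (adjusted p = 0.0337). Gstp1, a glutathione transferase, fell by 0.71 ± 0.13 (adjusted p = 0.0116). Among 16 genes of NRF2 and its targets 2 rose and 0 fell by limma (3 lower at an unadjusted p under 0.05, 5 lower with the block), with a median of -0.21. The pair were Slc7a11, counted already, and Keap1, which encodes the inhibitor of NRF2 (0.92 ± 0.20, adjusted p = 0.0215). Hmox1, heme oxygenase and a standard target, stood at -0.27 ± 0.17 (adjusted p = 0.47), and Nfe2l2, which encodes NRF2, at -0.06 ± 0.19.

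Gpx1 is a selenoprotein, so the other genes of that class were read as well. Of 19 tested, 1 was lower and 0 higher by limma, with a median of -0.26. At an unadjusted p under 0.05, 2 were higher and 5 lower, and with the block 2 were higher and 7 lower. The 1 called without the block was Sephs2, which makes the selenium donor for selenocysteine and is itself a selenoprotein: it fell from 7.96 ± 0.46 to 6.48 ± 0.52, by 1.48 ± 0.31 (adjusted p = 0.018). Of 6 genes of the selenocysteine machinery 0 were called by limma (2 lower at an unadjusted p under 0.05 and 2 with the block), the 2 of smallest p being Sepsecs (-0.54 ± 0.21, adjusted p = 0.00493 with the block) and Pstk (-0.37 ± 0.14, 0.0391).

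Catalase works in peroxisomes, and of 15 peroxisome genes tested 2 fell and 0 rose by limma, with a median of -0.16. At an unadjusted p under 0.05, 3 were lower and 0 higher, and with the block 4 were lower. Both genes called without the block encode enzymes of peroxisomal fatty acid oxidation: Acox3 fell by 1.08 ± 0.15 (adjusted p = 0.00253) and Hsd17b4 by 0.67 ± 0.16 (adjusted p = 0.0343). Pex5, the import receptor for catalase, read 6.23 ± 0.44 in spleen and 6.23 ± 0.39 in tumor. Nitric oxide is the other radical that phagocytes make, and 3 of the 11 genes of its list rose and 0 fell by limma (2 lower at an unadjusted p under 0.05 and 2 with the block). Nos2, the inducible synthase, read 5.46 ± 0.07 in spleen and 9.32 ± 0.13 in tumor, a rise of 3.86 ± 0.14 (adjusted p = 2.2e-06). Gch1, which starts the synthesis of its cofactor, rose by 2.16 ± 0.14 (adjusted p = 3.6e-05), and the arginine carrier Slc7a2 by 0.78 ± 0.13 (adjusted p = 0.00731).

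Of these 17 called pathway genes 8 stayed called whichever array was removed: Prkcb, Irf1, Cebpa, Idh1, Nos2, Gch1, Slc7a2 and Acox3. The other 9 lost it without at least 1 array. Sephs2 lost it without tumor 1 or 2, Gstp1 without spleen 1 or 2 or tumor 1, and Glrx without spleen 1 or 2 or tumor 1 or 3 (adjusted p up to 0.102). Slc7a11 lost it without any array but spleen 3, Idh2 without any 1 of the 6, and Hvcn1, Keap1, Me2 and Hsd17b4 without any array but tumor 3 (adjusted p up to 0.173).

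**Figure D3:**
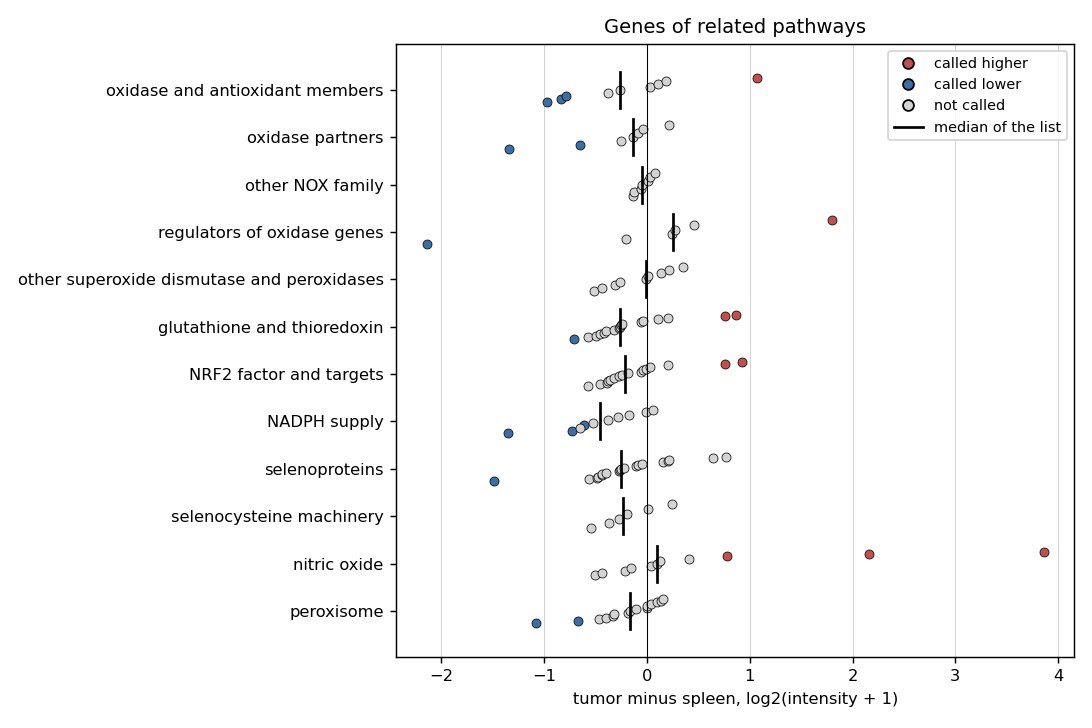
Difference of each tested gene, tumor minus spleen in log2(intensity + 1), for the 9 genes and for 11 lists of related genes, 1 point per gene, colored by call, with the median of each list as a bar. Nos2 at 3.86 and Gch1 at 2.16 reach farthest to the right, Cebpa at -2.14 farthest to the left, and NADPH supply has the lowest median, -0.45.

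Markers of the sort and of other cells moved with the groups in part. Itgam, which encodes CD11b, was 10.04 ± 0.15 in spleen and 9.19 ± 0.22 in tumor, and Itgax, which encodes the CD11c that the sort selected against, was 11.16 ± 0.12 and 10.31 ± 0.17. Of 10 genes of the sorted cells 1 rose (Ly6c2) and 4 fell (Itgam, Itgax, Ccr2 and Csf1r), while Lyz2 and Cd68 were not called. Cd68 stood at -0.26 ± 0.13, lower in tumor without overlap, as 15.5% of all genes were. Over all genes tested 5.73% were called higher and 4.85% lower, which is the background for every marker list here. Ly6c2 stood at 6.81 ± 0.58 in spleen and 8.29 ± 0.40 in tumor, 2.79-fold higher. Its relative Ly6c1 was dim and not called, at 3.65 ± 0.68 and 4.01 ± 0.40. Ccr2 stood at 6.86 ± 0.09 in spleen and 5.93 ± 0.15 in tumor. Of 12 neutrophil genes, a cell type rich in oxidase, 1 fell (Mmp8, by 0.68 ± 0.16), and the summed intensity of the 12 ran from 3374 to 4049 on the spleen arrays and from 2523 to 2842 on the tumor arrays. Mmp8 made up much of that gap: without it the sums ran from 1629 to 1745 in spleen and from 1350 to 1502 in tumor. The granule gene Mpo was not called at 5.63 ± 0.20 and 5.29 ± 0.15, nor was Ly6g at 5.06 ± 0.76 and 5.01 ± 0.29, and no marker was listed at 0. In the T cell list 1 of 5 genes fell (Cd3g), with summed intensities of 223 to 260 in spleen and 128 to 176 in tumor. In the NK cell list 1 of 3 rose (Klrk1; 173 to 242 in spleen, 519 to 805 in tumor), in the dendritic cell list 1 of 5 (Zbtb46; 837 to 982 and 801 to 879) and in the endothelial list 1 of 4 (Kdr; 173 to 215 and 427 to 624). Without the 1 called gene of each list the sums were 113 to 155 in spleen and 97.4 to 131 in tumor for T cells, 39.0 to 47.5 and 38.2 to 43.9 for NK cells, and 131 to 152 and 120 to 133 for endothelium. The dendritic cell sum without Zbtb46 was 709 to 873 in spleen and 588.5 to 701 in tumor. Of the 10 called marker genes, Ccr2, Cd3g, Klrk1 and Kdr stayed called whichever array was removed and the other 6 did not. The erythroid list had 1 tested gene, Klf1, which was not called at 4.06 ± 0.35 and 4.26 ± 0.23, and B cell, fibroblast, epithelial and melanocyte lists had 0 calls by limma (1 fibroblast gene each way at an unadjusted p under 0.05). With the block 7 more marker genes were called, named here after their values were seen: Adgre1 (adjusted p = 0.00257), S100a8 (0.0206), Csf3r (0.0193), Cd209a (0.0438), Col1a1 (0.00649) and Cdh1 (0.0159) lower, and Dcn (0.0262) higher. That made 5 of the 10 genes of the sorted cells and 3 of the 12 neutrophil genes lower. With the block 11.7% of all genes were called higher and 17.3% lower. The part of other cells in the results was not tested.

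**Figure D4:**
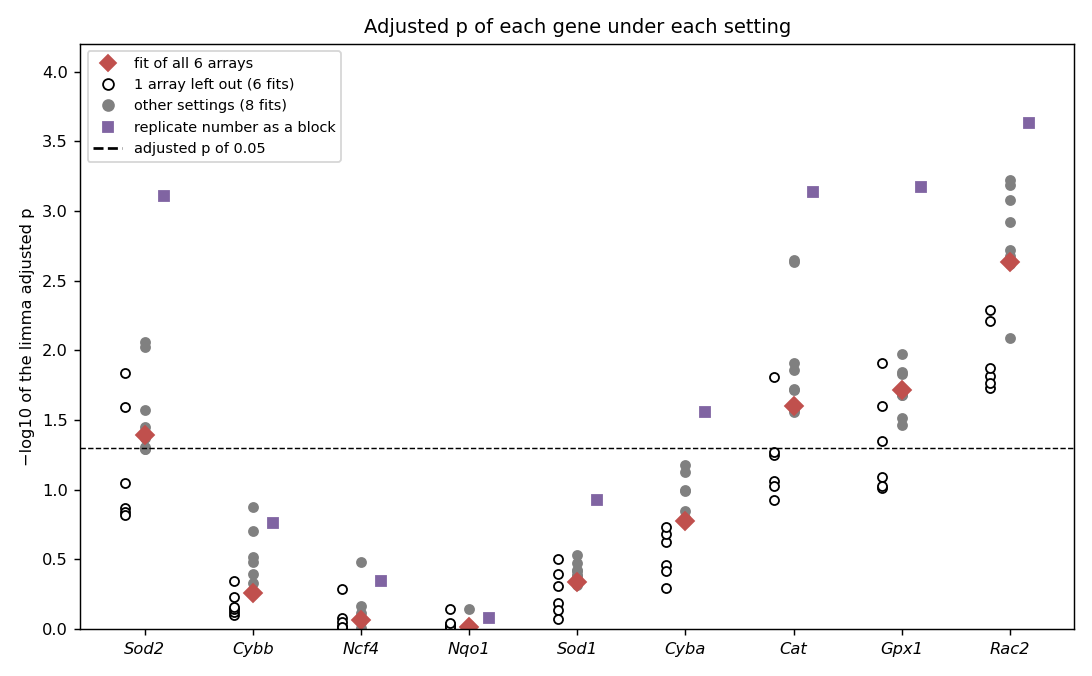
Adjusted p of each gene as −log10 (vertical axis) under the fit of all 6 arrays (diamonds), with 1 array left out (open circles), under 8 other settings (grey circles) and with the replicate number as a block (squares); the dashed line is an adjusted p of 0.05. Rac2 stays above the line at every setting, Sod2, Cat and Gpx1 cross it when arrays are left out, and Cyba lies above it only with the block.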

How the data were processed

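The deposited values are linear intensities of 41345 probe sets on 6 arrays; RMA is named per the submitters' processing notes, without version or settings, and the arrays do not share 1 distribution. Probe sets were named from the platform annotation (23521 with 1 symbol, 1814 with several, 16010 with none listed). Several rows of a gene were reduced to the one of highest mean. Genes above the 25th percentile of their array on at least 3 arrays were tested (18458). The values of log2(intensity + 1) were compared by limma 3.58.1 in R 4.3.3 (lmFit, eBayes, two-sided, group as the only term). The fit was run on simulated data with independent noise on each array. Those data lack the deviation that the arrays numbered 3 share, so the run cannot show how it affects the calls. Members and lists were chosen with earlier results of these data known; from each list up to 3 called rises and 3 called falls were named, or otherwise the 2 with the smallest p, and genes outside this rule were named after their values were seen. Of 130 list genes outside the set 112 have a row with 1 symbol; the rest were not analysed here. The number of arrays limits the precision.

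Whether equal numbers pair the arrays was checked by correlating, across genes, each array's deviation from its group mean: 0.36, 0.44 and 0.71 for numbers 1, 2 and 3. All exceed the limit of 0.1, so a block was fitted as an alternative, and its values or counts stand beside the results whose call it changes. Unequal numbers came out as high, at 0.46 for spleen 1 and tumor 2 and 0.35 for spleen 2 and tumor 1. The arrays numbered 3 thus differ from the rest, and matching of 1 with 1 and 2 with 2 was not shown; the labels do not say what a number means. Alternatives were other scalings, pseudocount, filters, probe set mean, prior, block, arrays 1 and 2 alone and each array left out.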

Additional observations from a re-analysis of the deposited data

How the results depend on the processing

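Over 15 alternatives per gene, Rac2 kept its direction and call (adjusted p up to 0.0186), and Cybb, Ncf4 and Sod1 kept their direction and were not called. Sod2 lost its call without the filter on dim genes (value 1.07, adjusted p = 0.0509) and on the arrays numbered 1 and 2 alone (1.12, adjusted p = 0.051), so that 0 of the 9 genes were higher by limma there (1 in the fit of all arrays). With 1 array left out Sod2 ran from 0.88 to 1.31, Cat from -0.91 to -0.67 and Gpx1 from -0.95 to -0.75; members called higher ran from 0 to 1 and lower from 1 to 3. All genes called ran from 662 to 1240 higher and from 293 to 1036 lower in those fits. With the replicate block, whose pairing is not shown for numbers 1 and 2, Cyba was called (-0.38, adjusted p = 0.0276) and so were 2153 genes higher and 3193 lower (1057 and 895 without it); it changed no other call among the 9. Quantile normalization, median centring and the arrays numbered 1 and 2 raised the genes called lower to 1921, 1806 and 1549 and those called higher to 1585, 1483 and 1387, so that lower calls outnumbered higher ones there. Nqo1, never called, turned sign under quantile normalization (-0.0094) and ran from -0.082 to 0.15 with 1 array left out. The cause of these shifts was not tested. Scaling moved the median difference of all genes by under 0.1. With 3 arrays per group, small differences such as those of Cybb and Ncf4 were not called at any setting.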
